A study of Mus musculus with 6 samples.

Results

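The 7 genes of the Fos and Jun families, Fos, Fosb, Fosl1, Fosl2, Jun, Junb and Jund, were followed in TM3 cells treated with the kinase inhibitor pyrotinib. They were taken by gene symbol from a deposited table of 54532 genes, each symbol matched 1 row, and all 7 passed the filter on low counts that left 14125 genes for testing. TM3 is an established line of mouse Leydig cells, the testicular cells that make testosterone, and the series concerns the toxicity of pyrotinib to the male reproductive system. Pyrotinib is an irreversible inhibitor of the ErbB receptor kinases, which signal through ERK. The control group was TM3 exposed to 0.1‰ DMSO and the treated group was TM3 exposed to 100 nM pyrotinib, both for 48 h, with 3 libraries of poly(A) RNA in each. All 6 libraries come from the same cell line, and the labels name no clone, passage or genetic change.

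AP-1 is a transcription factor made of pairs of Fos and Jun proteins, which grip each other through a leucine zipper and touch DNA through the basic region beside it. Jun proteins can pair with each other, whereas Fos proteins need a different partner, such as a Jun protein. Fos, Fosb, Jun and Junb are immediate early genes: growth factors switch them on within minutes, through ERK and its targets on the Fos promoter and through JNK and p38 on Jun. Fosl1 and Fosl2, which encode FRA-1 and FRA-2, are induced later and lack the strong activation domain of FOS. In Leydig cell lines, Fos and Jun proteins are known to bind the promoter of Star, the cholesterol carrier of steroid synthesis.

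The promoters of Fos, Jun and Junb are shown because these 3 members were lower with pyrotinib. The sequences are the 250 bases before the start of each gene in RefSeq (build GRCm38.p6), written 5′ to 3′ on the strand of the gene, and 6 of the 7 members matched the table, with Fosl1 unmatched. Capitals mark every match on either strand to TGANTCA (the classical AP-1 site), TGACNTCA (an AP-1 or cyclic AMP response site with any middle base), TGACG (the core of the full cyclic AMP response site TGACGTCA, which TGACNTCA also covers) and TATAAA (the TATA box). The Fos window lies at chr12:85473640-85473889 on the plus strand, the Jun window at chr4:95052223-95052472 and the Junb window at chr8:84978749-84978998, both on the minus strand.
Fos: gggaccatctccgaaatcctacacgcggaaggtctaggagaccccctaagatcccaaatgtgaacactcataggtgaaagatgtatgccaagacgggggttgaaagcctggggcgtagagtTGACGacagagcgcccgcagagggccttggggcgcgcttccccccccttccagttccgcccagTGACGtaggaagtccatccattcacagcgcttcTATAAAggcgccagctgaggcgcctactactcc
Jun: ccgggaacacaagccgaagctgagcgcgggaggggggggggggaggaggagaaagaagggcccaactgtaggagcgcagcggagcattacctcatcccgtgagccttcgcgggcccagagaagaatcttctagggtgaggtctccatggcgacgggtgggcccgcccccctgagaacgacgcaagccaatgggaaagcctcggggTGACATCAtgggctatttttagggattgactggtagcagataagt
Junb: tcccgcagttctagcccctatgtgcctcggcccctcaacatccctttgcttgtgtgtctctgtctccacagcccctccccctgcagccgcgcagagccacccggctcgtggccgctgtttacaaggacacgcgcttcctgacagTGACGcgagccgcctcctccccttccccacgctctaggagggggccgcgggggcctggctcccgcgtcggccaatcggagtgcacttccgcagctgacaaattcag
The Fos window held the cyclic AMP core at 129 to 125 and at 66 to 62 bases before the start, and the TATA box at 33 to 28 bases. The Jun window matched TGACNTCA at 45 to 38 bases, with A at the open base, and the Junb window held the cyclic AMP core at 106 to 102 bases. The window of Fosb, not printed here, also held the cyclic AMP core, at 60 to 56 bases, and Fosb was not called. A link between these motifs and the changes was not tested. Over all 32851 windows of that length in the table, 17.8% held the cyclic AMP core, 7.49% held the AP-1 or cyclic AMP site with any middle base, 6.75% held the classical AP-1 site, 1.55% held the full cyclic AMP site and 12.4% held the TATA box. The classical AP-1 site, the full cyclic AMP site and the CArG box of serum response factor (in 1.47% of all windows) had no match in the 3 printed windows, which says nothing of sites elsewhere. The RefSeq start of Junb is 30 bases from the start in the deposited table, and those of Fos and Jun are identical to it.

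Library totals ran from 15005737 to 16171030 counts. Expression values are TMM-scaled counts relative to library size (CPM). The groups lay apart on the first principal component of log2 CPM, which took up 52.3% of the variance. DMSO replicate 2 scored -39.1 against -19.0 and -22.6 for the other DMSO libraries. Pyrotinib replicate 2 scored 15.8 against 29.4 and 35.5 for pyrotinib replicates 1 and 3. Pyrotinib replicates 1 and 3 carried a trend with the GC content of transcripts, at -0.23 and -0.27 log2 units per 10 percentage points, which pyrotinib replicate 2 lacked (-0.0011, with DMSO between -0.01 and 0.02). Of 9 Leydig cell markers, Hsd3b6 and Lhcgr had 0 reads in every library, Cyp11a1 had 19 reads in all, Nr5a1 had 10, and Star stood at 2.27 ± 0.317 CPM with DMSO (SD, n = 3). The list summed to between 4.37 and 5.5 CPM with DMSO and between 6.14 and 7.74 with pyrotinib. Of the 9 markers, 2 had enough reads to be tested and 0 were called. Star stood at 3.34 ± 0.921 CPM with pyrotinib (log2 fold change 0.56, edgeR adjusted p = 0.17). Mesenchymal genes were abundant, Col1a1 at 8944 ± 162 CPM and Vim at 4867 ± 302 with DMSO, and 12 markers of germ, Sertoli, immune, endothelial and epithelial cells summed to between 3.20 and 5.30 CPM in each library. Most defining Leydig markers were therefore at or near 0 in cells labelled as Leydig cells. In RNA from a whole culture, fewer cells expressing a gene and less RNA per cell cannot be told apart.

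With pyrotinib, Fos, Jun and Junb fell and Fosl1 and Fosl2 rose, while Fosb and Jund did not pass the test. That is 5 of 7 members called by edgeR's quasi-likelihood test at an adjusted p under 0.05, against 26.0% of all tested genes. DESeq2 and limma-voom also called 2 members higher and 3 lower, with 25.4% and 25.8% of all genes called. By direction, 2 of 7 were higher against 13.2% of all genes and 3 of 7 lower against 12.8%. The median log2 fold change of the 7 was -0.23, against 0.0022 over all tested genes. The groups of 3 libraries did not overlap for the 5 called members, as for 40.9% of all tested genes. Leaving out DMSO replicate 2 gave 4 called members, where 13.5% of all genes were called. Leaving out any other library gave 5, where the share of all genes was 21.0% without DMSO replicate 1, 16.9% without DMSO replicate 3, and 17.7%, 35.9% and 14.9% without pyrotinib replicates 1, 2 and 3. A fit to log2(FPKM + 1) with no filter on low values called 2 members and 2.11% of 26564 genes, a wider set than in the fits above.

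**Figure D1:**
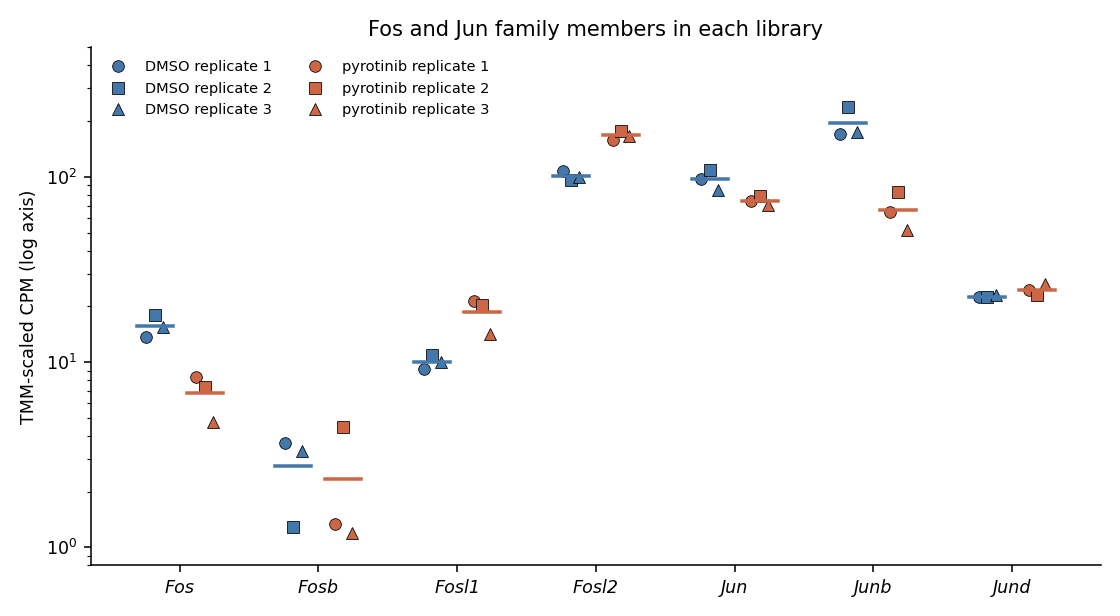
TMM-scaled CPM (log axis) of each member in each library, with circles, squares and triangles for replicates 1, 2 and 3 and a line at the group mean. Junb, Jun and Fos are lower in all 3 pyrotinib libraries than in any DMSO library, Fosl1 and Fosl2 are higher in all 3, and Fosb and Jund overlap.

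Fos (ENSMUSG00000021250; mm10, chromosome 12, 85473890 to 85477273, plus strand) encodes FOS, the founding partner of JUN. It gave 205, 282 and 247 reads in DMSO replicates 1, 2 and 3 and 130, 119 and 76 in pyrotinib, or 13.7, 18.0 and 15.4 CPM against 8.32, 7.31 and 4.77. Each pyrotinib library lay below each DMSO library. Fos fell 2.31-fold (log2 fold change -1.21 ± 0.19, approximate SE; 95% interval -1.60 to -0.82; edgeR adjusted p = 0.00022). Of the 3 promoters shown, that of Fos held the TATA box and more than 1 match to the cyclic AMP core.

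Fosb (ENSMUSG00000003545; chromosome 7, 19302696 to 19310051, minus strand), an immediate early relative of Fos, was the scarcest member. It had 55, 20 and 53 reads with DMSO and 21, 73 and 19 with pyrotinib, which is 3.66, 1.28 and 3.31 CPM against 1.34, 4.49 and 1.19. DMSO replicate 2 and pyrotinib replicates 1 and 3 were low, pyrotinib replicate 2 was the highest of all, and the groups overlapped. The log2 fold change was -0.23 ± 0.45 (edgeR adjusted p = 0.75), with an interval from -1.17 to 0.72. At this depth and spread, a fall or a rise within that interval remains possible. Without pyrotinib replicate 2 the value was -1.11 (adjusted p = 0.063), and in pyrotinib replicate 2 alone it was 0.71 (adjusted p = 0.36).

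Fosl1 (ENSMUSG00000024912; chromosome 19, 5447703 to 5455945, plus strand) encodes FRA-1, itself a known transcriptional target of AP-1 whose protein ERK stabilises. The libraries held 137, 170 and 160 reads with DMSO and 335, 329 and 226 with pyrotinib, or 9.13, 10.9 and 9.98 CPM against 21.4, 20.2 and 14.2. Every pyrotinib library stood above the DMSO range, replicate 3 least so. Fosl1 rose 1.86-fold (log2 fold change 0.90 ± 0.16; interval 0.56 to 1.23; edgeR adjusted p = 0.00071).

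Fosl2 (ENSMUSG00000029135; chromosome 5, 32135801 to 32157842, plus strand), the gene of FRA-2, had the most reads of the Fos family. It gave 108, 96.5 and 99.6 CPM with DMSO and 159, 178 and 166 with pyrotinib, from 1508 to 2895 reads per library. The groups lay far apart relative to the spread within them. Fosl2 rose 1.65-fold (log2 fold change 0.73 ± 0.08; interval 0.55 to 0.90; edgeR adjusted p = 1.9e-05).

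Jun (ENSMUSG00000052684; chromosome 4, 95049034 to 95052222, minus strand) encodes the partner that binds DNA most readily with FOS and can drive its own promoter in response to JNK. It gave 97.9, 108 and 84.8 CPM with DMSO and 73.8, 78.4 and 70.5 with pyrotinib. The gap between the lowest DMSO and the highest pyrotinib library was small. Jun fell 1.31-fold (log2 fold change -0.38 ± 0.10; interval -0.59 to -0.18; edgeR adjusted p = 0.0072). The call was lost without DMSO replicate 2 (-0.30, adjusted p = 0.061) and in pyrotinib replicate 2 alone (-0.30, adjusted p = 0.15). The antisense gene Junos overlaps Jun on the other strand and had between 29 and 50 reads per library, against 1123 to 1691 for Jun.

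Junb (ENSMUSG00000052837; chromosome 8, 84974484 to 84978718, minus strand) encodes a Jun protein that can oppose JUN on some promoters and is best known for restraining the cell cycle. It gave 171, 239 and 175 CPM with DMSO and 64.6, 82.4 and 51.5 with pyrotinib, from 820 to 3729 reads. All 3 pyrotinib libraries were below the lowest DMSO library, and DMSO replicate 2 was the highest of all. Junb fell 2.95-fold (log2 fold change -1.56 ± 0.14; interval -1.86 to -1.26; edgeR adjusted p = 1.6e-06), and without DMSO replicate 2 the value was -1.39 (adjusted p = 1.1e-05). By p it stood at place 19 among the 14125 tested genes, with Fosl2 at 58, Fos at 263, Fosl1 at 500 and Jun at 1633. The end of Junb overlaps that of Prdx2, a peroxiredoxin gene on the other strand, at 224 ± 21.1 CPM in the DMSO libraries and 190 ± 16.4 CPM in the pyrotinib libraries (-0.24 as log2 fold change, edgeR adjusted p = 0.066). No source used here says whether strand entered the counting, so reads in the shared stretch cannot be assigned with certainty.

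Jund (ENSMUSG00000071076; chromosome 8, 70698949 to 70700616, plus strand), the Jun gene that is expressed steadily rather than as an immediate early gene, gave 22.3, 22.3 and 23.1 CPM with DMSO and 24.5, 22.9 and 26.4 with pyrotinib. The groups overlapped, and the log2 fold change was 0.12 ± 0.11 (edgeR adjusted p = 0.44), with an interval from -0.11 to 0.36. Its longest transcript had the highest GC content of the members, at 67.2%, against 62.6% for Junb and 51.9% for Fos. After a correction for the GC trend its log2 fold change was 0.33 (adjusted p = 0.052). The 5 calls remained after that correction, where 28.0% of all genes were called, at -1.15 for Fos, 1.04 for Fosl1, 0.81 for Fosl2, -0.26 for Jun and -1.41 for Junb. In pyrotinib replicate 2 alone, the library without the trend, the values were -1.10, 1.02, 0.82, -0.30 and -1.24, and these calls held for 4 of the 5, Jun excepted, where 6.90% of all tested genes were called. That fit takes the lone library to vary as the DMSO libraries do.

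**Figure D2:**
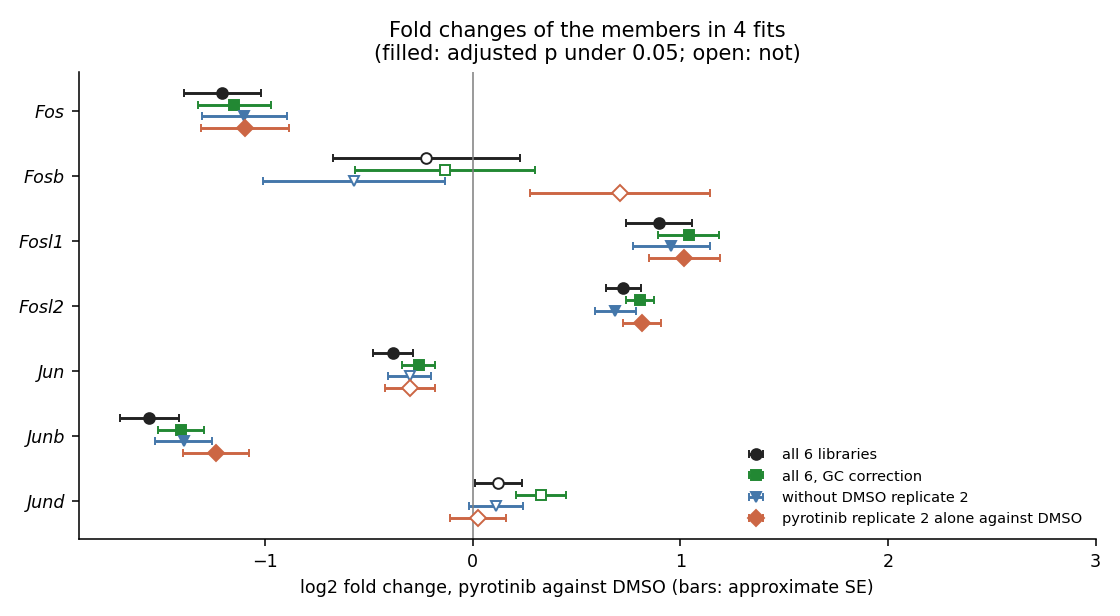
Log2 fold change of each member (pyrotinib against DMSO, bars: approximate SE) in 4 fits, filled where the adjusted p was under 0.05. Fos and Junb stay between -1.56 and -1.10 and Fosl1 and Fosl2 between 0.69 and 1.04 in all 4, Jun is open in 2 of them, and Fosb changes sign in pyrotinib replicate 2 alone.

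Levels of different genes were compared per length, as FPKM, and the order of the members changed with treatment. With DMSO, Junb led at 87.0 ± 17.1 FPKM (SD, n = 3), followed by Jun at 31.2 ± 3.80, Jund at 13.9 ± 0.268, Fosl2 at 10.7 ± 0.603, Fos at 6.86 ± 0.976, Fosl1 at 6.02 ± 0.537 and Fosb at 0.452 ± 0.211. The ranges of neighbours in this order did not overlap except those of Fos and Fosl1. With pyrotinib, Junb stood at 29.1 ± 6.76 FPKM and overlapped with Jun at 23.6 ± 1.21. Below them came Fosl2 at 17.5 ± 0.957, Jund at 14.95 ± 1.08, Fosl1 at 11.1 ± 2.31, Fos at 2.93 ± 0.790 and Fosb at 0.38 ± 0.30. Fosl2 thus passed Jund, and Fosl1 and Fos, level with DMSO, no longer overlapped. FPKM divides by the exon length in the table, 9680 bases for Fosl2 and 1668 to 6243 for the others, so a shorter transcript in these cells would be understated.

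Summed per length, the Jun family was lower and the Fos family higher with pyrotinib. The 3 Jun members summed to 121, 155 and 120 FPKM with DMSO and 67.0, 74.9 and 61.2 with pyrotinib, a ratio of 0.512. The 4 Fos members summed to 23.5, 24.9 and 23.8 FPKM with DMSO and 33.3, 34.4 and 28.0 with pyrotinib, a ratio of 1.33. All 7 together were at 0.637 of the DMSO level. Neither family overlapped between groups, and the two-sided exact permutation p was 0.1 for each sum, the smallest that 3 against 3 libraries can give.

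Within the Fos family, Fosl1 and Fosl2 took 69.7 ± 2.29% of summed FPKM with DMSO and 89.8 ± 1.93% with pyrotinib (SD, n = 3; two-sided exact permutation p = 0.1). The share of Fos went from 25.4%, 31.7% and 28.2% to 10.8%, 9.13% and 7.34%. That of Fosl1 went from 25.0 ± 1.48% to 34.4 ± 4.18% and that of Fosl2 from 44.7 ± 3.77% to 55.3 ± 6.01%. The ratio of Fosl1 to Fos, 2 genes read in the same library, was 0.921, 0.831 and 0.893 with DMSO and 3.55, 3.81 and 4.10 with pyrotinib. The mean difference was 2.11 on the log2 scale, against SDs of 0.08 and 0.10 within the groups (two-sided exact permutation p = 0.1). Fosl1 was higher and Fos lower without overlap, so the groups had to lie apart in this ratio and its p-value adds no support. The joint share of Fosl1 and Fosl2 mostly follows from the same calls, so its p-value is no separate support either. Within the Jun family, the share of Junb went from 65.6 ± 2.95% to 42.7 ± 5.60%, that of Jun from 23.7 ± 1.89% to 35.0 ± 1.76%, and that of Jund from 10.7 ± 1.60% to 22.3 ± 3.84%. Shares sum to a fixed total, so a larger share is not a higher level: Jun itself fell, and Jund did not pass the test.

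**Figure D3:**
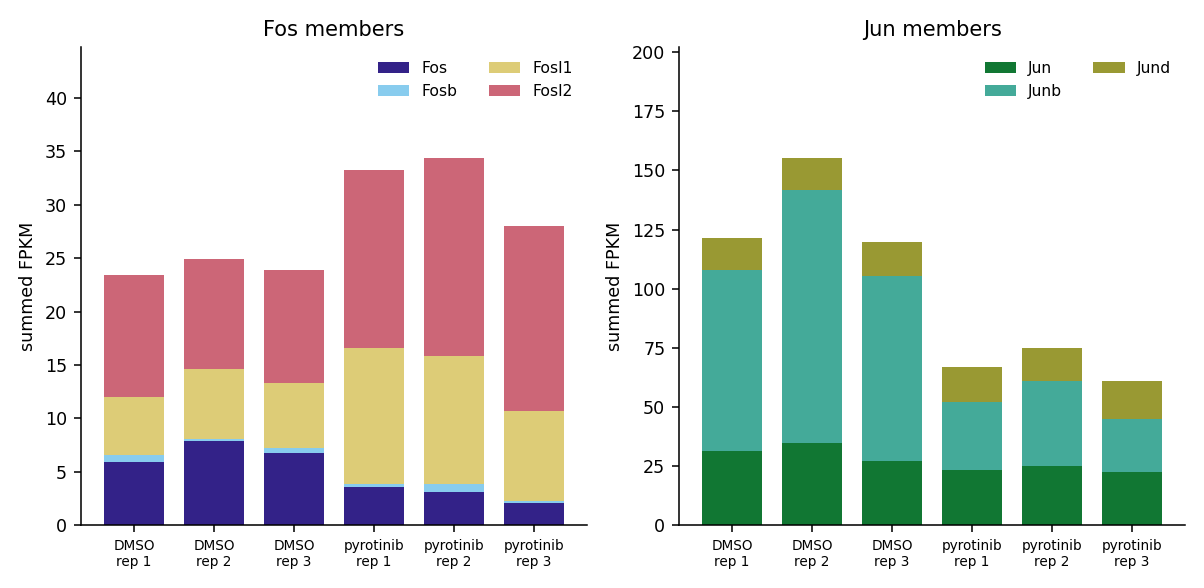
FPKM of the 4 Fos members (left) and the 3 Jun members (right), stacked for each library, on axes that start at 0. The Fos sum is between 23.5 and 24.9 with DMSO and between 28.0 and 34.4 with pyrotinib, while the Jun sum is between 120 and 155 with DMSO and between 61.2 and 74.9 with pyrotinib, mostly through Junb.

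The deposited table puts 48 genes in the bZIP class, to which all 7 members belong, and 31 of the other 41 were tested. Of these 31, 5 rose and 8 fell, beside 13.2% and 12.8% of all tested genes, with a median log2 fold change of -0.02. Among the 38 bZIP genes tested, members held 4 of the 5 places with the largest absolute log2 fold change: Junb at -1.56, Fos at -1.21, Fosl1 at 0.90 and Fosl2 at 0.73. The other was Ddit3, a stress-induced bZIP factor of the C/EBP group, at -1.48. Members and gene lists were chosen with earlier results of these data known, so this order and the list counts below are descriptions only.

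Of 14 other bZIP partners of Fos and Jun, 8 were tested, 1 rose and 2 fell, a share called of 3 in 8 beside 26.0% of all genes, and their median log2 fold change was -0.10. Mafk, a small MAF protein that pairs with Fos proteins and with NRF2, fell 1.57-fold, from 53.9 ± 1.08 to 34.3 ± 3.85 CPM (edgeR adjusted p = 0.00024). Its relative Maff fell 1.3-fold and Atf2, a Jun partner phosphorylated by JNK and p38, rose 1.28-fold (adjusted p = 0.018 and 0.012). Both calls ended when DMSO replicate 2 was left out (adjusted p = 0.078 for each), and likewise for pyrotinib replicate 1 (0.052 and 0.068) and replicate 3 (0.12 and 0.058), so 1 to 4 partners were called with 1 library left out. Atf2 also lost its call after the GC correction, where its log2 fold change was 0.16 and the 3 partners called were lower. Atf3, another immediate early partner of Jun, gave 7.48 ± 2.64 and 7.93 ± 0.516 CPM (log2 fold change 0.09, interval -0.38 to 0.55, adjusted p = 0.81). Among those not tested, Batf, Mafa and Nrl had 0 reads in every library, and Batf2 and Batf3 had 18 and 58 reads in all, too few to be tested.

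Among 17 kinases and promoter-binding factors upstream of Fos and Jun, 16 were tested, 3 rose and 4 fell, or 7 in 16 beside 26.0% of all genes, with a median log2 fold change of 0.05. Elk3, an ETS factor that binds the Fos promoter beside serum response factor, rose 1.43-fold (76.5 ± 2.43 to 110 ± 7.05 CPM, edgeR adjusted p = 0.00036). Rps6ka3, the kinase RSK2 that acts below ERK, rose 1.49-fold, and Mkl2, a coactivator of serum response factor, 1.33-fold (adjusted p = 0.00089 and 0.0019). Mef2d, a factor that binds the Jun promoter, fell 1.33-fold (149 ± 9.16 to 112 ± 10.0 CPM, adjusted p = 0.0031). Srf, serum response factor itself, fell 1.2-fold (71.7 ± 3.16 to 59.6 ± 5.03 CPM, adjusted p = 0.04). The remaining falls, named after their values were seen, were Elk1 (1.26-fold) and Mkl1 (1.22-fold). The 3 that rose had transcripts of 40.5% to 49.7% GC and the 4 that fell of 52.0% to 64.4%, and their log2 fold changes after the GC correction were 0.51 for Elk3, 0.38 for Rps6ka3, 0.43 for Mkl2, -0.29 for Mef2d and -0.09 for Srf, which lost its call (adjusted p = 0.46). The list then had 4 higher and 1 lower, so that of the 4 falls Mef2d alone was still called. Leaving out any library but pyrotinib replicate 2 also ended the call of Srf (adjusted p from 0.05 to 0.2). The count of 7 went to 4 when DMSO replicate 3, pyrotinib replicate 1 or pyrotinib replicate 3 was left out (3 higher and 1 lower each time), and to 11 (6 higher and 5 lower) without pyrotinib replicate 2. Mapk8, the gene of JNK1, gave 51.8 ± 3.10 and 53.7 ± 8.62 CPM (log2 fold change 0.05, interval -0.18 to 0.29, adjusted p = 0.76).

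Of 11 genes of mRNA decay and protein turnover known to act on Fos and Jun, 4 fell and 0 rose by edgeR, beside 12.8% and 13.2% of all genes, with a median log2 fold change of -0.19. At an unadjusted p under 0.05, edgeR gave 5 lower and 1 higher, and DESeq2 and limma-voom also called 4 lower and 0 higher. Zfp36, the gene of tristetraprolin, which binds AU-rich elements and speeds the decay of mRNAs that include Fos, fell 1.77-fold (36.4 ± 2.80 to 20.5 ± 5.28 CPM, edgeR adjusted p = 0.00061). Its relatives Zfp36l1 and Zfp36l2 fell 1.56-fold and 1.23-fold, and Khsrp, another AU-rich element binding protein, fell 1.23-fold (adjusted p = 9.7e-05, 0.011 and 0.021). Correcting for GC content ended the call of Khsrp (adjusted p = 0.066), as did leaving out any of 5 libraries, pyrotinib replicate 2 excepted (adjusted p from 0.05 to 0.14). The list as a whole had 5 lower and 0 higher after the GC correction, where 28.0% of all genes were called. Zfp36l2 was no longer called when DMSO replicate 3 (0.071) or pyrotinib replicate 3 (0.08) was left out. The count of 4 falls was 2 when either of those libraries was left out. Leaving out pyrotinib replicate 2 gave 4 falls and 2 rises.

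Of 26 genes long described as AP-1 targets, 22 were tested. Of these, 8 fell and 2 rose by edgeR, beside 12.8% and 13.2% of all tested genes, and the median log2 fold change was -0.37. With no adjustment, 11 were lower and 6 higher at an edgeR p under 0.05. DESeq2 called 9 lower and 2 higher, and limma-voom 11 lower and 2 higher. After the GC correction 9 were lower and 5 higher, where 28.0% of all genes were called. Mmp9, the gelatinase whose promoter carries AP-1 sites, fell 2.65-fold from 80.1 ± 4.4 to 30.3 ± 3.82 CPM (edgeR adjusted p = 2.4e-07). Ccl2, a chemokine that draws monocytes, fell 2.49-fold (24.7 ± 3.43 to 9.90 ± 1.55 CPM, adjusted p = 1.3e-05). The angiogenic factor Vegfa fell 1.68-fold and the hyaluronan receptor Cd44 1.59-fold (adjusted p = 2.1e-05 and 8.7e-05). Ccnd1, the G1 cyclin, rose 1.39-fold (75.1 ± 1.93 to 105 ± 6.93 CPM, adjusted p = 0.0007), and Ezr, a linker of actin to the membrane named after its values were seen, rose 1.35-fold. The collagenase gene Mmp13, also named after its values were seen, gave 15 ± 2.37 and 16.3 ± 0.761 CPM (adjusted p = 0.58). Many of these promoters are known to answer to other factors as well, and the part of AP-1 in their changes was not tested.

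The other immediate early genes had 7 of 14 tested lower, beside 12.8% of all genes, and 0 higher by edgeR, with a median log2 fold change of -0.34. At an unadjusted p under 0.05, edgeR gave 8 lower and 1 higher, and DESeq2 and limma-voom called 7 lower and 0 higher. Egr1 fell 2.23-fold (334 ± 22.4 to 150 ± 13.5 CPM, edgeR adjusted p = 2.7e-07), close to the 2.31-fold of Fos. Ier3 fell 1.93-fold, Ier5l 1.67-fold and Ier2 1.37-fold. The other 7 tested genes were not called, and 4 of the 14 had a positive log2 fold change. Among the 7, both named after their values were seen, Egr3 stood at 0.51 and Dusp1 at -0.004 (edgeR adjusted p = 0.11 and 0.99).

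**Figure D4:**
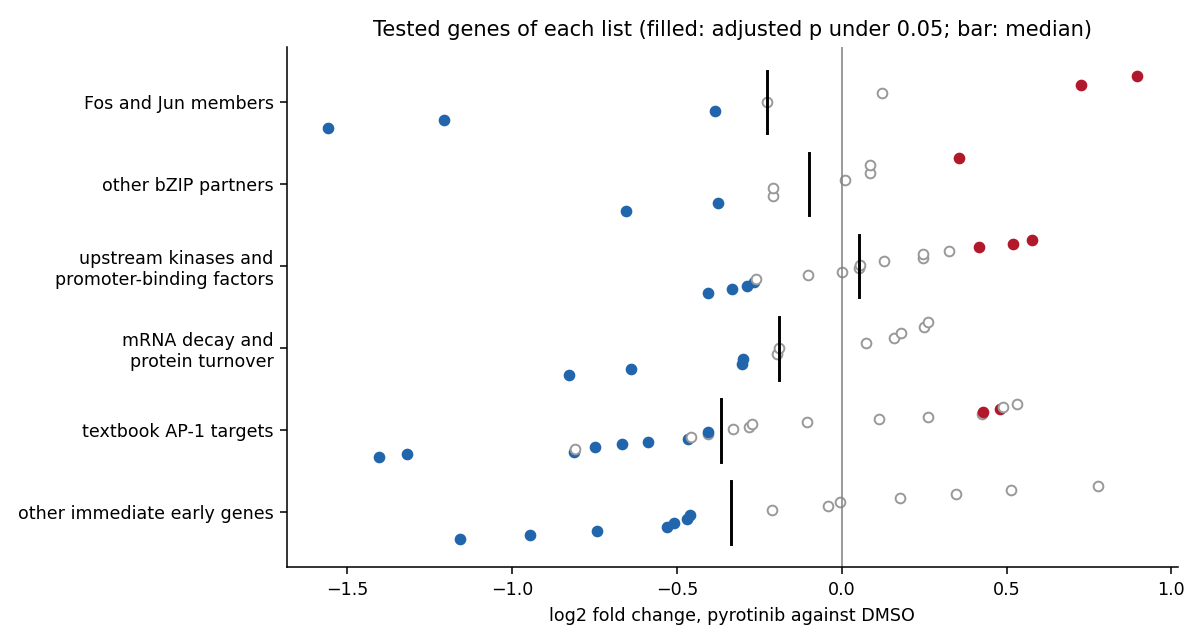
Log2 fold change of each tested gene of 6 lists (pyrotinib against DMSO), filled where the edgeR adjusted p was under 0.05, with a bar at the median of the list. The Fos and Jun members spread from -1.56 to 0.90, while the medians run from -0.37 for textbook targets to 0.05 for upstream factors.

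The genes most like each called member were sought by the distance between profiles of log2(CPM + 1) over the 6 libraries, each centred on its own mean, among protein-coding genes of at least 5 CPM. For Junb the nearest were Nr1d1 (distance 0.197), Ddit3 (0.237) and Per1 (0.325), of which Nr1d1 and Per1 are parts of the circadian clock. Nr1d1 fell 2.78-fold, from 183 ± 32.9 to 65.9 ± 12.4 CPM, and Per1 fell 2.52-fold. For Fos they were Rps10 (0.279), a ribosomal protein gene with processed copies that may share its reads, Troap (0.3285), a spindle protein gene, and Ddit4 (0.3345), an inhibitor of mTOR. For Fosl1 they were Oasl2 (0.372), Cradd (0.403) and Col20a1 (0.404). For Fosl2 they were Adamtsl5 (0.102), Zfp141 (0.137) and Zbtb4 (0.1615), and for Jun they were Gtpbp3 (0.0758), Ampd2 (0.0824) and Cdk10 (0.1105). Among members, Fos stood at place 17 in the order of likeness to Junb, and Junb at place 89 in that to Fos (distance 0.671). Fosl2 stood at place 37 in the order of likeness to Fosl1, but Fosl1 at place 976 in that to Fosl2 (0.537). With 6 libraries in 2 groups these distances mostly follow the difference between groups.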

How the data were processed

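Per the labels' protocols, poly(A) RNA of TM3 cells was fragmented, cDNA fragments of 370 to 420 bp were selected, and paired reads of 150 bp were made. No strand-marking step is described. The authors deposited whole-number counts per gene and a table of FPKM. Build mm10, HISAT2 2.0.5, featureCounts 1.5.0-p3, fastp and DESeq2 1.20.0 are named, per the submitters' processing notes; the sources used here give no roles, settings or annotation release. In the deposited FPKM table, the library size implied by the counts was between 93.9% and 99.9% of the count total. Of 54532 gene identifiers, 54409 were found in GENCODE M21, 98.3% of them at identical positions.

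Counts were tested with edgeR 4.0.16 in R 4.3.3: filterByExpr defaults (minimum count 10, minimum total 15), TMM scaling, and the two-sided quasi-likelihood F-test, with Benjamini-Hochberg adjustment over 14125 genes and a threshold of 0.05. CPM is TMM-scaled. SEs are approximate: the size of the log2 fold change over the root of its F statistic. Alternatives used DESeq2 1.42.0 and limma 3.58.1 (voom, and limma-trend on log2 of FPKM plus 1 or 0.1), other scalings and filters, a lowess correction for transcript GC content (span 0.3, longest GENCODE M21 transcript, 1 curve per library), a replicate block, thinning and leaving out libraries. The routines were tested on simulated data. FPKM sums, shares and ratios were compared by exact permutation over libraries.

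The labels number the replicates 1 to 3 in each group and name no separate cultures, which limits p-values to the spread among these libraries, a spread that may be technical. Every pair of libraries within a group differed beyond sampling noise (chi-square over its degrees of freedom, 4.16 to 16.3). Pyrotinib replicate 2 gave 15.4 against replicate 1 and 16.3 against replicate 3, while pyrotinib replicates 1 and 3 gave 4.82. Members and gene lists were chosen with earlier results of these data known. Named genes are the 7 members, at most 4 called genes per list, those of lowest adjusted p, Atf3, Egr1, Srf, Mapk8 and Ccnd1, the 3 genes most like each called member (leaving out Gm-numbered and Rik symbols), and Leydig and mesenchymal markers; others are said to be named after their values were seen.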

Additional observations from a re-analysis of the deposited data

How the results depend on the processing

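Each member was fitted under up to 22 alternatives. Fosl2 and Junb kept direction and call in all of them, and Fos and Fosl1 in all but 1. In limma-trend on log2(FPKM + 1) with no filter on low values, the log2 fold changes of Fos, Fosl1 and Jun were -1.01, 0.76 and -0.38 with adjusted p of 0.052, 0.067 and 0.09; there 2 members, 561 of all genes (39.9% of them higher, against 50.8% in the reported fit), 1 bZIP partner, 2 upstream factors, 1 decay factor, 6 targets and 2 immediate early genes were called. In pyrotinib replicate 2 alone, Jun was at -0.30, Fosb at 0.71 and Mapk8 at -0.24, and 1055 genes, 1 partner, 3 upstream factors, 1 decay factor and 4 immediate early genes were called. Limma-trend with a filter called 2179 genes with a pseudocount of 1 (42.0% higher) and 2185 with 0.1 (42.4% higher), and 1 partner in each; Fosb did not pass that filter and has no value there. At an adjusted p under 0.01, 1877 genes, 1 partner, 4 upstream factors and 2 decay factors were called.

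With 1 library left out, the log2 fold change ran from -1.37 to -1.0 for Fos, 0.78 to 1.06 for Fosl1, 0.68 to 0.77 for Fosl2, -0.48 to -0.30 for Jun (adjusted p 0.0019 to 0.061), -1.74 to -1.39 for Junb, 0.07 to 0.18 for Jund and -1.11 to 0.094 for Fosb. Fosb turned positive without DMSO replicate 1 (0.030), pyrotinib replicate 1 (0.052) or pyrotinib replicate 3 (0.094). Atf3 ran from -0.18, without DMSO replicate 2, to 0.31. Mapk8 was at -0.16 after the GC correction, with or without the block, at -0.0047 without pyrotinib replicate 1 and at -0.019 without pyrotinib replicate 3, within a range of -0.019 to 0.18 with 1 library left out. The number of members called ran from 4 to 5, that of all genes from 1956 (without DMSO replicate 2; 2164 without pyrotinib replicate 3) to 5226, of partners from 1 to 4, of upstream factors from 4 to 11, of decay factors from 2 to 6, of targets from 9 to 14 and of immediate early genes from 6 to 9.

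Same-numbered libraries deviated together by correlations of 0.0050, 0.076 and 0.023, so the numbers were not taken to pair the samples. With the replicate block 4265 genes were called in place of 3667, and the log2 fold changes were -1.22 for Fos, 0.88 for Fosl1, 0.73 for Fosl2, -0.38 for Jun and -1.57 for Junb, with no member's call changed. The block together with the GC correction put Jund past the threshold (0.32, adjusted p = 0.033) and called 17 targets, 5 higher and 12 lower. The sum of each family, the share of each member and the ratio of Fosl1 to Fos kept their direction in the 7 alternatives run for each. No alternatives are reported for the sum of all 7 members or for the joint share of Fosl1 and Fosl2. Of 858 fits of 39 other named genes, 774 kept direction and call, 72 lost the call, 6 gained it and 6 turned direction. The causes were not tested. Depth limits Fosb most, at 19 to 73 reads per library.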
